A study of Mus musculus with 6 samples.

Results

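The genes described here are 41 contractile and actin cytoskeleton genes, listed by name as smooth muscle, actin-binding and Srf- or Yap-linked genes. They were looked up by symbol among 18997 genes measured on exon arrays of mouse mesenchymal stem cell clones, and each gene was read from its brightest transcript cluster over the 6 arrays. Of the 41 genes 39 were measured. Tagln2 and Flna share their only transcript cluster with other genes, so no value is given for either. Mkl1, Mkl2 and Cyr61 are listed in newer annotation as Mrtfa, Mrtfb and Ccn1.

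Smooth muscle cells and myofibroblasts pull on their surroundings with actin filaments and non-muscle or smooth muscle myosin, and calponins, tropomyosins and transgelin decorate the filaments. Filaments end in adhesion plaques built from talin, vinculin, zyxin and alpha-actinin. Free actin monomer holds the coactivators Mkl1 and Mkl2 in the cytoplasm, and when filaments form the coactivators enter the nucleus and switch on genes with the DNA-binding factor Srf. Yap1 and Wwtr1 (Taz) act beside this circuit through Tead factors and respond to tension and cell spreading. Marrow stromal cells in culture commonly express part of this programme.

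All 6 cultures came from bone marrow cells of the hindlimb of a mouse with both Dicer alleles floxed, immortalised by a retrovirus with SV40 Large T antigen and cloned, and all were undifferentiated and untreated. Clones 6 and 12 had kept Dicer, the ribonuclease that makes mature microRNAs, and are labelled Dicer+/+ (n = 2). Dicer-/- clones (n = 4) were made from each with an adenovirus carrying Cre and GFP, sorting for GFP, a second cloning and genotyping by PCR. The nulls of clone 6 are 6.8 and 6.9, and the nulls of clone 12 are 12.2 and 12.4, and values of nulls are given in that order. By the titles each clone was measured once, on 1 array. A Dicer-carrying clone taken through infection, sorting and recloning was not among the arrays, so those steps and Dicer loss cannot be told apart. For 6.9 the title and the cell type field name different clones, 6.9 and 6.8. If the field is right, that array is a repeat of clone 6.8 and there are fewer than 4 null clones. The title was used, and values without that array are given below. Values are log2 levels as deposited, and a change is the level in a null clone minus that in its own parent.

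Dicer1 itself read 4.48 in clone 6, 4.66 and 4.43 in its nulls, 4.83 in clone 12, and 4.47 and 4.64 in its nulls, a change of -0.10 ± 0.14 (limma, adjusted p 0.885). Whether its transcript cluster reads the deleted part of the gene was not tested, so it does not check the labels. Of 11 measured stromal markers 8 had a mean above 6, with Pdgfrb between 8.08 and 10.4 on the log2 scale and a mean over all 11 of 8.50 and 8.40 on the parental and 7.89 to 8.20 on the null arrays. Thy1, also a stromal marker, lay between 2.52 and 2.74, below the array medians of 3.01 to 3.21, and Nt5e between 2.69 and 4.38. No haematopoietic marker of 7 was above 4.08 on any array and no endothelial marker of 8 above 3.46. Of the list itself 31 of 39 genes had a mean above 6. Myh11, the myosin heavy chain that defines mature smooth muscle, read 2.63 in clone 6, 2.69 and 2.72 in its nulls, 2.80 in clone 12, and 2.69 and 2.67 in its nulls, with a change of -0.02 ± 0.10 (limma, adjusted p 0.979). Myod1 and Myog, which define skeletal muscle, lay between 2.55 and 2.96.

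No member passed the threshold of an adjusted p of 0.05 in limma, with the parental line as a block and Benjamini-Hochberg adjustment over all genes, whereas 112 of all 18997 genes, or 0.59%, did (0.163% higher and 0.426% lower in the nulls). Of the members, 12 of 39 had an unadjusted p under 0.05, 7 with a change above 0 and 5 below, against 13.7% of all genes and 22.3% of the 5409 genes with a mean above 6. The count of 0 also stood in limma without the block, with 11 members at an unadjusted p under 0.05. On the 4 null arrays 8 members lay above both parents and 5 below both, or 20.5% and 12.8%, where 9.44% and 13.9% of all genes did. Among genes with a mean above 6 the shares were 25.8% and 16.1% for members and 15% and 16.2% for all. Together 33.3% of the members and 23.4% of all genes did not overlap between the groups, and 38.5% and 32.1% had the same sign in every null clone. Among genes with a mean above 6, 41.9% of members and 31.2% of all did not overlap. At that level 41.3% of all genes had the same sign in every null clone, and of 31 members 8 were higher and 6 lower in each. The median change of the 39 members was 0.05, beside -0.02 over all genes, and its sign turned with the parents, at -0.12 without clone 6 and 0.29 without clone 12. The changes of 24 of 39 members lay within 0.5 of 0. Values of both signs stood side by side in the list, and the changes described below did not pass the test.

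**Figure D1:**
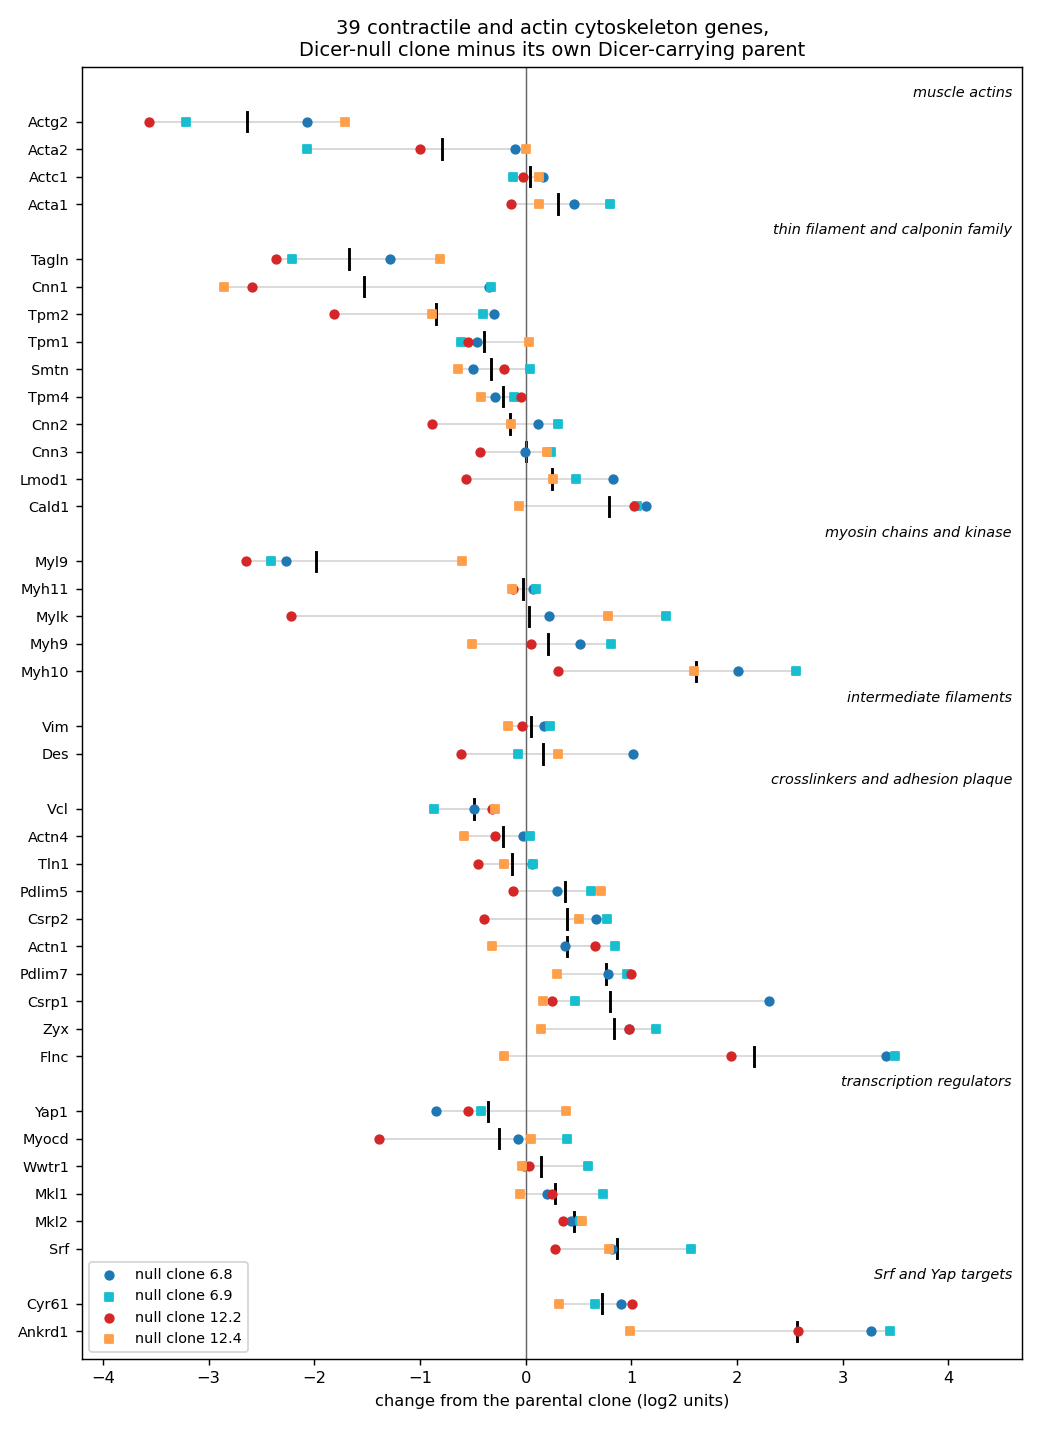
Change of each measured member in each Dicer-null clone, in log2 units, grouped by role, with a black bar at the mean of the 4 clones. Actg2, Tagln and Myl9 lie left of 0 in all 4 clones and Ankrd1, Myh10, Srf and Cyr61 right of 0, while 24 of 39 means lie within 0.5 of 0.

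Among the 4 muscle actins, Actg2, the gamma actin of visceral smooth muscle, had the largest change of any member. Its log2 level read 8.96 in clone 6, 6.89 and 5.74 in its nulls, 9.41 in clone 12, and 5.84 and 7.69 in its nulls. All null arrays were below both parents, with a mean change of -2.64 ± 0.62 (standard error of the fit), a size of 6.24-fold (limma, adjusted p 0.172). Acta2, the alpha actin of vascular smooth muscle and the usual marker of myofibroblasts, had no such gap between the groups. It read 12.22 in clone 6, 12.12 and 10.16 in its nulls, 12.46 in clone 12, and 11.45 and 12.46 in its nulls. Clones 6.8 and 12.4 differed from their parents by -0.10 and 0.0, clone 6.9 by -2.07 and clone 12.2 by -1.0, and the mean was -0.79 ± 0.64 (limma, adjusted p 0.737), or -0.50 without clone 6 and -0.33 without clone 6.9. Acta1 and Actc1, the actins of skeletal and heart muscle, had levels of 4.12 to 4.91 and 3.53 to 3.97 and mean changes of 0.31 and 0.04. The coding sequences of these actins are nearly alike, so probes may share signal between them, and this was not tested. Since these are bulk cultures, fewer cells with a transcript and less of it per cell cannot be told apart.

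Genes of the thin filament and the calponin family held 10 measured members with a median change of -0.27, the lowest of the larger groups. Tagln, or SM22, a calponin-like protein that stabilises filaments, read 8.12 in clone 6, 6.83 and 5.90 in its nulls, 9.43 in clone 12, and 7.07 and 8.61 in its nulls. Each null clone was below its own parent, but clone 12.4 lay above parental clone 6, so the groups overlapped. The mean change of Tagln was -1.67 ± 0.51 (limma, adjusted p 0.266). Cnn1, the smooth muscle calponin, was the member with the widest gap between the parents. It read 4.27 in clone 6, 3.92 and 3.94 in its nulls, 7.33 in clone 12, and 4.74 and 4.48 in its nulls, and only 9 of all genes had a larger gap between the parents. Its changes were -0.35 and -0.33 in line 6 and -2.59 and -2.85 in line 12. The line 6 levels were near 4, where changes are limited by signal over background. The mean change of Cnn1 was -1.53 ± 0.56 (limma, adjusted p 0.34), and it was -0.34 without clone 12 and -2.72 without clone 6.

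The tropomyosins, which wind along the filament and gate myosin, had changes of -0.85 ± 0.36 for Tpm2, -0.40 ± 0.20 for Tpm1 and -0.22 ± 0.15 for Tpm4. Tpm2 and Tpm4 were below both parents on all null arrays, and Tpm1 overlapped because clone 12.4 had 11.65 against 11.24 and 11.63 in the parents. Cald1, or caldesmon, an inhibitor of myosin binding, read 6.17 in clone 6, 7.30 and 7.21 in its nulls, 6.75 in clone 12, and 7.77 and 6.69 in its nulls. Its change was the highest of this group at 0.79 ± 0.35, with clone 12.4 between the levels of clones 6 and 12. Cnn2 and Cnn3, the calponins of non-muscle cells, had -0.15 and 0.0, the cytoskeletal smoothelin gene Smtn -0.33 and the actin nucleator Lmod1 0.25, with Lmod1 at 3.09 to 4.07.

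Tagln, Cnn1, Tpm1 and Yap1 lie on chromosome 9, and the 254 other chromosome 9 genes with a mean above 6 had a median change of -0.49, the lowest among the chromosomes that carry members. That median was -0.50 and -0.61 in the nulls of clone 6 and -0.59 and -0.23 in those of clone 12, and chromosome 9 genes were higher by a median of 0.32 in clone 12 than in clone 6. With every array centred on its chromosome the change of Tagln was -1.15 and that of Cnn1 -1.01, while that of Yap1 was 0.16 in place of -0.36. None of the 3 passed in limma in that fit, and the part of the chromosome in these values was not tested further.

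**Figure D2:**
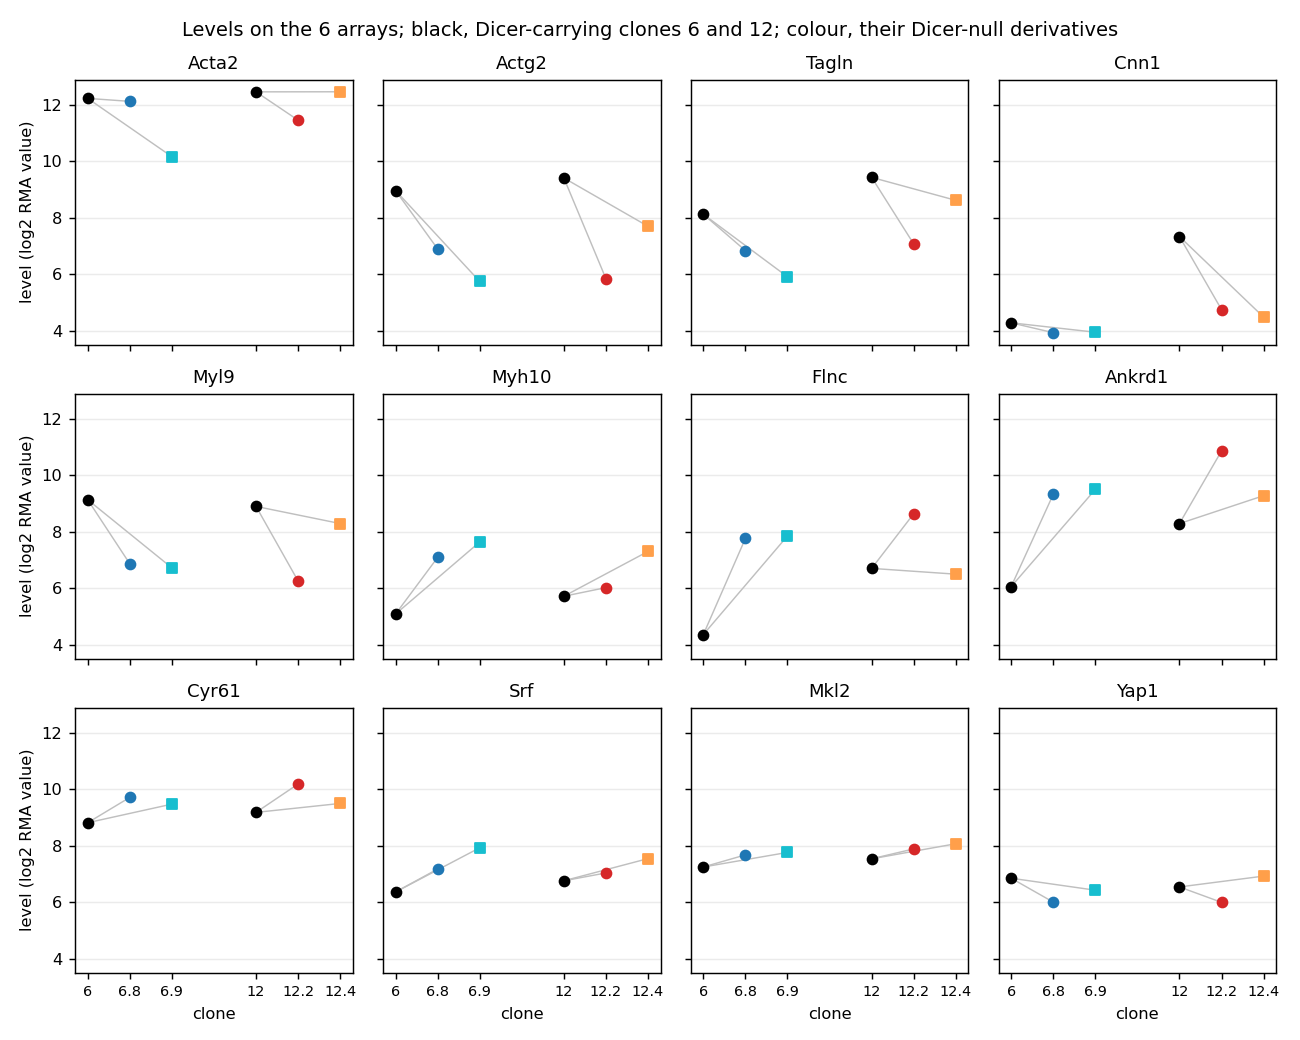
Log2 RMA levels of 12 members on the 6 arrays, with black points for the Dicer-carrying clones and lines to the null clones made from each. Actg2 and Myl9 lie below both parents in all 4 null clones, Ankrd1, Cyr61, Srf and Mkl2 above both, and Acta2 is near its parent in clones 6.8 and 12.4.

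The myosin genes held changes of both signs. Myl9, the regulatory light chain whose phosphorylation starts contraction, read 9.13 in clone 6, 6.86 and 6.71 in its nulls, 8.89 in clone 12, and 6.25 and 8.28 in its nulls. All null arrays were below both parents, clone 12.4 by the least, and the mean change was -1.98 ± 0.60 (limma, adjusted p 0.262). Its other transcript cluster gave changes of -2.75 and -2.84 in the nulls of clone 6 and -2.84 and -0.56 in those of clone 12, so clone 12.4 was nearest to its parent in both clusters. Myh10, the non-muscle myosin IIB heavy chain, had the opposite sign. It read 5.08 in clone 6, 7.08 and 7.63 in its nulls, 5.71 in clone 12, and 6.02 and 7.30 in its nulls. All null arrays were above both parents, clone 12.2 by 0.31 over its own parent and the others by 1.59 to 2.55, with a mean of 1.61 ± 0.50 (limma, adjusted p 0.271). It was 0.95 without clone 6 and 2.28 without clone 12. Myh9, the IIA heavy chain, overlapped, with 8.77 and 9.51 in the parents, 8.99 to 9.58 in the null clones and a change of 0.21 ± 0.28.

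Mylk, the kinase that phosphorylates the regulatory light chain, gave different answers by transcript cluster. Its brightest cluster had changes of 0.22 and 1.33 in the nulls of clone 6 and -2.22 and 0.78 in those of clone 12, a mean of 0.03 ± 0.96 (limma, adjusted p 0.999). A second cluster had 1.53 and 3.09 in line 6 and -0.29 and 2.39 in line 12, a mean of 1.68. In both clusters clone 12.2 was the lowest of the null clones and 6.9 had the largest positive change. The remaining clusters of Mylk had means of 0.44 and 0.04 and did not exceed 3.49 on any array. Which transcripts these clusters read was not tested.

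**Figure D3:**
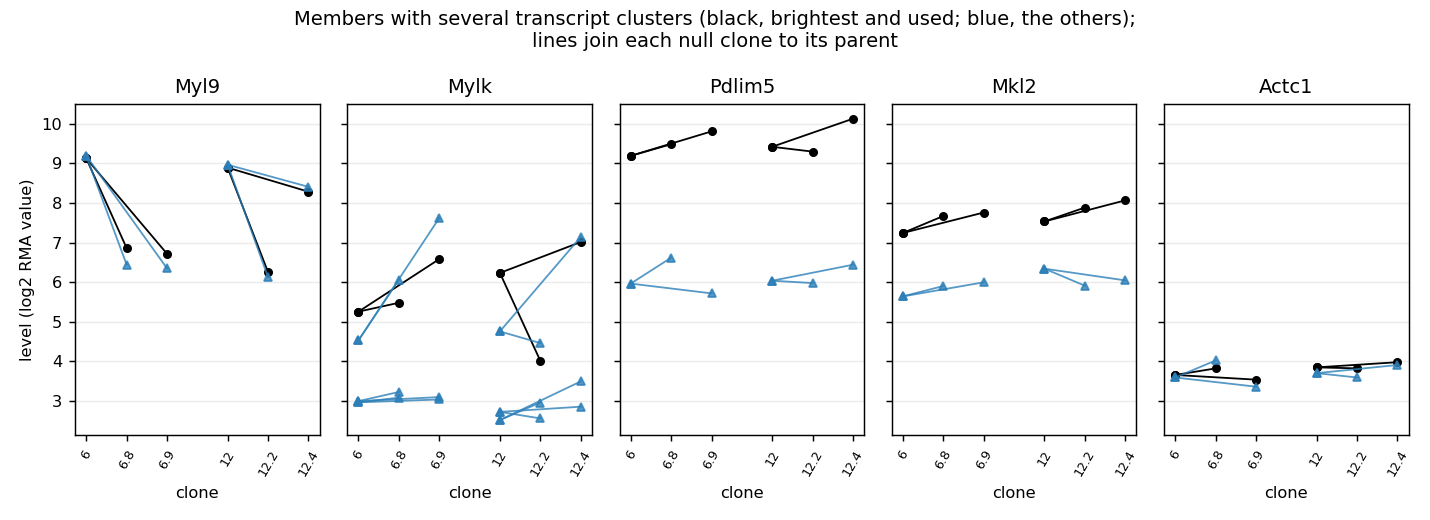
Log2 RMA levels of the 5 members with several transcript clusters, with lines from each parent to its null clones. The 2 clusters of Myl9 nearly coincide, and in both brighter clusters of Mylk clone 12.2 is the lowest null clone.

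Crosslinkers and adhesion plaque genes had 10 measured members with a median change of 0.39, and 3 of them, Zyx, Pdlim7 and Csrp1, lay above both parents on all null arrays. All 10 had a mean above 6, where 15% of all genes lay above both parents and 16.2% below. Flnc, the filamin of muscle that crosslinks actin and is induced by mechanical load, read 4.35 in clone 6, 7.76 and 7.85 in its nulls, 6.70 in clone 12, and 8.63 and 6.49 in its nulls. Clone 12.4 was below its own parent, so the groups overlapped, and the mean change was 2.16 ± 0.85 (limma, adjusted p 0.375). It was 3.45 without clone 12 and 0.87 without clone 6, and only 24 of all genes had a larger gap between the parents.

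Zyx, or zyxin, a LIM protein recruited to strained filaments, read 7.03 in clone 6, 8.0 and 8.26 in its nulls, 7.25 in clone 12, and 8.23 and 7.40 in its nulls, a change of 0.83 ± 0.29. Pdlim7, a PDZ and LIM adaptor on filaments, had 6.02 and 6.28 in the parents and 6.57 to 7.27 in the null clones, a change of 0.76 ± 0.23. In both genes clone 12.4 was the lowest of the null clones. Csrp1, a LIM protein that binds alpha-actinin, had 8.93 and 9.16 in the parents, 11.2 in clone 6.8 and 9.32 to 9.41 in the other null clones. Its mean of 0.80 ± 0.59 held a change of 2.30 in clone 6.8 and of 0.17 to 0.47 in the others. Vcl, or vinculin, which couples talin to actin, was the 1 gene of this group below both parents in all null clones, with 9.80 and 9.87 against 8.94 to 9.58 and a change of -0.49 ± 0.16. Talin itself, Tln1, and the alpha-actinins Actn1 and Actn4 had changes of -0.13, 0.39 and -0.22, and Pdlim5 and Csrp2 had 0.38 and 0.39. Actn1 lies on chromosome 12, where the other genes with a mean above 6 had a median change of 0.40, and 0.34 to 0.51 by clone. Vcl, on chromosome 14, changed by -0.49 and -0.87 in the nulls of clone 6 and -0.32 and -0.29 in those of clone 12. Chromosome 14 genes with a mean above 6 had medians of -0.34 and -0.39 in the former and 0.32 and 0.35 in the latter. The part of the chromosome in the values of Vcl was not tested. The adjusted p of the genes in this paragraph was 0.257 to 0.828 in limma.

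The intermediate filament gene Vim, or vimentin, read 12.26 and 12.24 in the parents and 12.06 to 12.50 in the null clones, with a change of 0.05 ± 0.12. Des, or desmin, the muscle filament protein, had 4.21 and 4.43 in the parents and 3.60 to 5.44 in the null clones.

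Of the 6 regulators 2 lay above both parents in all null clones. Over all genes the share was 9.44%, and 15% of those with a mean above 6. Srf read 6.36 in clone 6, 7.17 and 7.92 in its nulls, 6.75 in clone 12, and 7.03 and 7.54 in its nulls. Its change was 0.86 ± 0.31 (limma, adjusted p 0.333), and 0.53 without clone 6. Mkl2 read 7.24 in clone 6, 7.67 and 7.76 in its nulls, 7.53 in clone 12, and 7.88 and 8.07 in its nulls. Its 4 changes lay between 0.35 and 0.53, the narrowest spread among the 13 members whose groups did not overlap, and the mean was 0.46 ± 0.10 (limma, adjusted p 0.165). A second, dimmer cluster of Mkl2 gave a mean of -0.03. Mkl1 read 6.37 in clone 6, 6.57 and 7.10 in its nulls, 6.81 in clone 12, and 7.06 and 6.75 in its nulls, so the groups overlapped, with a change of 0.28 ± 0.21 (limma, adjusted p 0.707) that was 0.0977 without clone 6, 0.465 without clone 12 and 0.14 without clone 6.9. Myocd, or myocardin, the muscle-restricted partner of Srf, read 4.24 in clone 6, 4.16 and 4.63 in its nulls, 4.81 in clone 12, and 3.42 and 4.86 in its nulls. Its change of -0.25 ± 0.47 (limma, adjusted p 0.927) held -1.39 in clone 12.2, without which it was 0.11, and it was -0.67 without clone 6 and 0.16 without clone 12. Yap1 read 6.84 in clone 6, 6.0 and 6.42 in its nulls, 6.53 in clone 12, and 5.99 and 6.92 in its nulls, a change of -0.36 ± 0.32 (limma, adjusted p 0.779). Leaving out 1 array gave values from -0.64 without clone 12 to -0.0807 without clone 6, with -0.20 without 12.2, -0.23 without 6.8 and -0.60 without 12.4. Clone 12.4 was the only null clone above its parent, and Wwtr1 had a change of 0.14 ± 0.20.

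The 2 target genes were both above both parents on every null array, as were 15% of all genes with a mean above 6. Ankrd1, or CARP, a stress-induced muscle ankyrin repeat protein and a common readout of Yap1, read 6.05 in clone 6, 9.32 and 9.49 in its nulls, 8.28 in clone 12, and 10.86 and 9.27 in its nulls. Its changes were 3.27 and 3.44 in line 6 and 2.57 and 0.99 in line 12. The mean was 2.57 ± 0.58, a size of 5.93-fold and the largest above 0 among the members (limma, adjusted p 0.162). No other member had a lower adjusted p. It was 1.78 without clone 6 and 3.35 without clone 12, and only 34 of all genes differed more between the parents. Cyr61, a secreted matricellular protein and another common readout of Yap1 and Srf, read 8.81 in clone 6, 9.71 and 9.47 in its nulls, 9.18 in clone 12, and 10.18 and 9.49 in its nulls. Its change was 0.72 ± 0.22 (limma, adjusted p 0.271). Clone 12.2 was the highest null clone for both targets.

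Srf and the Tead partners of Yap1 are known to act through 2 motifs, which were searched in promoters of these genes. The promoters of 4 members with a motif are shown, all of them members whose groups did not overlap. Those of the other members with a motif are not shown. Promoter windows of 250 bases before and 50 after the start were taken from RefSeq on build GRCm38.p6, which held 36 of the 41 genes. Actg2, Tagln, Myh11, Myocd and Csrp2 were not among them. The CArG box, the 10-base consensus of Srf (CC, 6 bases of A or T, then GG), reads alike on both strands. Only exact matches were counted, so near matches, such as ccctatatgg before the start of Acta2, were left out. It was found in 6 members, or 16.7%, against 1.81% of all 27025 genes with a window. The MCAT motif of Tead factors, CATTCC or GGAATG on the other strand, was found in 18 members, or 50% of them, against 16.6%. No match of one overlapped a match of the other in a member. The list was drawn up from genes linked to Srf and Yap, so these shares are a description of that choice. The 250 bases before the start of Myl9 (chr2:156775214-156775463, plus strand) and Srf (chr17:46556163-46556412, minus strand) are given 5′ to 3′ with CArG boxes in capitals, and those of Ankrd1 (chr19:36119845-36120094, minus strand) and Cyr61 (chr3:145649986-145650235, minus strand) with MCAT motifs in capitals.
Myl9: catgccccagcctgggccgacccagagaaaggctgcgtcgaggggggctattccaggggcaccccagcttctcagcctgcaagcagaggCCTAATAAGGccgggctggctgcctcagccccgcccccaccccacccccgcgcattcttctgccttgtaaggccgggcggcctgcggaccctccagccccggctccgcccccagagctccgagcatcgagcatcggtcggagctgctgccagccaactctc
Srf: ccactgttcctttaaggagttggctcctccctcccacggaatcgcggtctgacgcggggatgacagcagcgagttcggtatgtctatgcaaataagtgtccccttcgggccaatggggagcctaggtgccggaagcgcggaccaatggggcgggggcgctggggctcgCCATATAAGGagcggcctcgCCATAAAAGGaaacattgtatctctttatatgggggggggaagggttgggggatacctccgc
Ankrd1: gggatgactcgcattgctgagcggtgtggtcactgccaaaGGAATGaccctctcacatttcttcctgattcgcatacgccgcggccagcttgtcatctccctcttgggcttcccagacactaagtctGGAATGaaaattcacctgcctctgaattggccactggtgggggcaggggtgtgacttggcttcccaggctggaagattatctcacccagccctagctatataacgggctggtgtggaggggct
Cyr61: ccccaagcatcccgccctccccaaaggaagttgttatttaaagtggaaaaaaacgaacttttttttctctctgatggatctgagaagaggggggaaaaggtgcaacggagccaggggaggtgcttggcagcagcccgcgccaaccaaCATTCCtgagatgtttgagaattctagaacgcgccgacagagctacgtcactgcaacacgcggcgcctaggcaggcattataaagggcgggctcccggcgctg

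Myl9 had 1 CArG box and Srf 2, and their changes had opposite signs. The other members with a CArG box were Acta1, Actc1, Cnn2 and Vcl. The 6 members with the box had changes from -1.98 to 0.86 with a median of -0.06. The 28 measured members with a window and no exact match, Acta2 among them, had a median of 0.19. Ankrd1 had 2 MCAT motifs and Cyr61 had 1. The 16 measured members with the motif had changes from -0.79 to 2.57 with a median of 0.20, and 4 of them lay above both parents in all null clones and 1 below. The 18 without it had a median of 0.10, with 4 above and 3 below. Of all genes 9.44% lay above and 13.9% below, and no difference between members with and without a motif was tested.

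**Figure D4:**
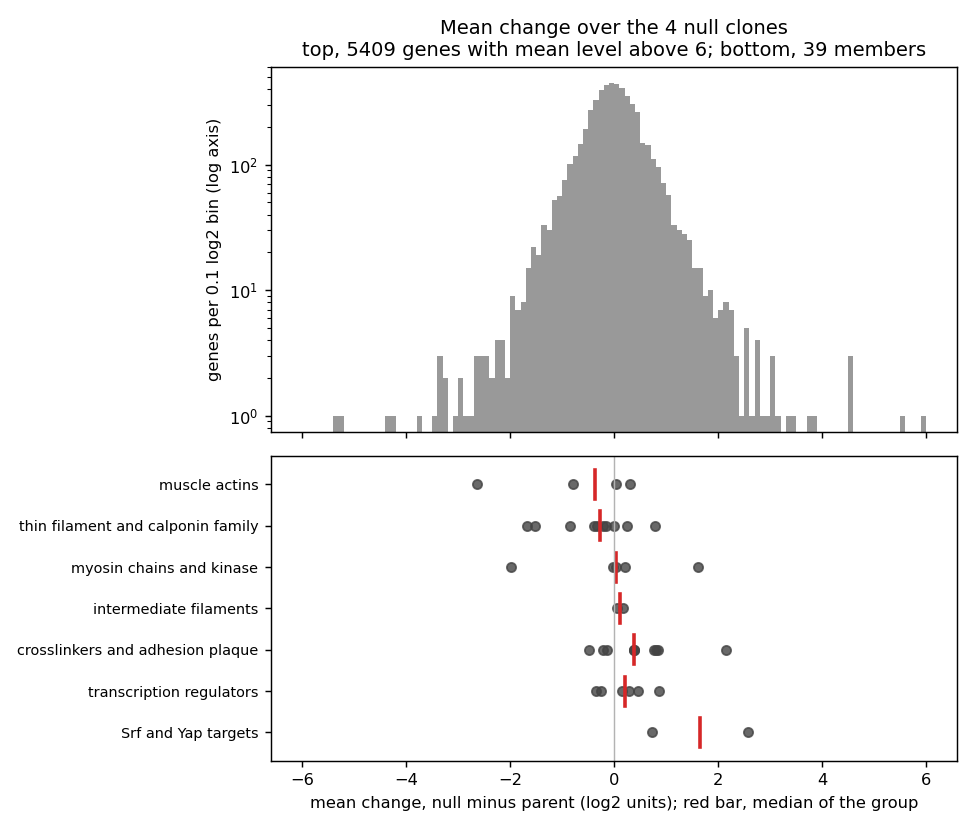
Mean change over the 4 null clones in log2 units for the 5409 genes with a mean above 6, as a histogram with a log count axis, and for the 39 members by role, with red bars at the group medians. The members spread from -2.64 to 2.57, within the range of all genes, with medians from -0.38 for the muscle actins to 1.64 for the 2 targets.

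Of the members 7 of 39, or 17.9%, had a mean change over 1 in size, 3 above 0 and 4 below, against 6.4% of all genes, of which 2.97% lay above 1 and 3.43% below -1. Among genes with a mean above 6 the shares were 19.4% of members and 10.5% of all. The null clones differed among themselves by a median range of 0.86 per member, beside 0.81 for all genes with a mean above 6. Clone 12.4 was the closest to its parent in 19 of 39 members, or 48.7%, and in 21.5% of all genes and 26.3% of genes with a mean above 6. The members closest to the parent there included Actg2, Acta2, Tagln, Myl9, Ankrd1, Flnc, Zyx, Pdlim7 and Cyr61. Without the array titled as clone 6.9 the changes were -2.39 for Actg2, -0.33 for Acta2, -1.46 for Tagln, -1.90 for Myl9, 1.40 for Myh10, 0.65 for Srf and 2.42 for Ankrd1, and no member passed in limma.

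Whether the lines responded differently was asked with the interaction of line and Dicer loss, which has a single parent in each line and leaves 2 residual degrees of freedom. In limma it called 0 of 39 members and 0 of all genes, and 1 member, Cnn1, had an unadjusted p under 0.05, where 3% of all genes did. The change of Cnn1 was lower by 2.38 in line 12 than in line 6, a contrast in which its parental gap of 3.06 takes part. Clone 6 read 4.27 and its nulls 3.92 and 3.94, near the level of about 4 below which background limits changes. A larger fall in line 6 could hardly be seen, so this contrast does not show that the lines responded differently. For Ankrd1 and Flnc the change in line 12 minus that in line 6 was -1.57 and -2.58, with parental gaps of 2.23 and 2.34.

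Further genes of the same machinery came from 4 lists, with 87 of 92 genes measured. In limma 0 of the 87 passed, and 23 had an unadjusted p under 0.05. The share at that p was 13.7% of all genes and 22.3% of those with a mean above 6. Without the block 4 passed in limma, 1 above 0 (Fblim1) and 3 below (Fhl1, Pdlim2 and Hspb7), where 1.16% of all genes did. Pdlim2 and Hspb7 were named after their values were seen. The 4 lists had a median change of 0.05, with 15 genes above both parents in all null clones and 9 below, where 9.44% and 13.9% of all genes were. Of the 87 genes 61 had a mean above 6, and of all genes at that level 15% were above and 16.2% below. Cytoplasmic actins and filament turnover genes had a median of 0.03 over 19 genes. Of these Pfn2, a profilin that feeds actin monomer to growing ends, had the largest change at 2.08 ± 0.78 (limma, adjusted p 0.355), with 4.94 in clone 12.2 against 7.48 to 8.04 in the other null clones.

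Further adhesion and LIM domain genes had a median of 0.05 over 28 genes. Fhl1, a LIM protein of muscle, read 7.04 in clone 6, 3.67 and 3.05 in its nulls, 7.95 in clone 12, and 4.53 and 3.14 in its nulls. All null arrays were far below both parents, with a change of -3.90 ± 0.45 (limma, adjusted p 0.0548, or 0.0365 without the block). Hippo kinases and Tead factors had a median of 0.05 over 21 genes, with the LIM protein Ajuba, an inhibitor of Hippo kinases, the largest at 1.08 ± 0.27 (limma, adjusted p 0.198). Further reported Yap and Srf targets had a median of 0.13 over 19 genes. Of these Fblim1, or migfilin, which links filamin to adhesions, had 5.88 and 6.45 in the parents and 7.84 to 8.68 in the null clones. Its change was 2.15 ± 0.31 (limma, adjusted p 0.0781, or 0.0411 without the block). The change of Ctgf, another common readout of Yap1 (Ccn2 in newer annotation) and picked after its value was known, was -0.08 ± 0.37, and the groups overlapped.

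Markers of neighbouring cell types were read beside these changes, and their part in the members' values was not tested. Mean levels of the 14 smooth muscle and pericyte markers were 4.05 and 4.33 on parental arrays and 3.84 to 4.27 on null arrays. Of the 14 markers, 9 had a mean below 4. Their median change was -0.03, with 2 above 1 (Sncg and Ppp1r14a) and 2 below -1 (Mcam and Cspg4). Of all genes 2.97% lay above 1 and 3.43% below -1. In all null clones 2 of the 14 markers lay above both parents and 4 below, where 9.44% and 13.9% of all genes did. The adhesion molecule Mcam had the largest change at -1.76 ± 0.46 (limma, adjusted p 0.209). Cspg4 had the lowest adjusted p of the list (limma, 0.127). The 16 striated muscle markers had a mean level of 3.28 and 3.38 on the parental and 3.34 to 3.58 on the null arrays, and 13 had a mean below 4. Their median change was -0.08, with 1 of the 16 above 1 and 0 below -1. Their largest change was that of Tnnc1, the troponin C of heart and slow muscle, which read 5.92 in clone 6, 8.91 and 8.79 in its nulls, 4.61 in clone 12, and 6.41 and 8.06 in its nulls, a change of 2.78 ± 0.48 (limma, adjusted p 0.103). The stromal markers had a median change of -0.37, with Col1a2, a fibrillar collagen chain, the largest at -1.01 ± 0.20 (limma, adjusted p 0.132). Among haematopoietic and endothelial markers the largest were Cd68 at 0.27 ± 0.22 (limma, adjusted p 0.731) and Egfl7 at -0.25 ± 0.14 (limma, adjusted p 0.57).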

How the data were processed

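The deposited values were log2 levels for 44343 transcript clusters on 6 arrays, made, per the submitters' processing notes, with tools that include Partek 6.5 and RMA. The sources used here give no genome build for them. Because RMA gives arrays a common distribution, a difference in RNA content per cell cannot be seen, and precision is limited by how many arrays there are. Detection calls were not used here. Of the clusters 22781 had 1 gene in the platform annotation, 2085 several and 19477 none, and 22485 were matched by Entrez identifier to GRCm38.p6.

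Changes were fitted with limma 3.58.1 in R 4.3.3 on 18997 genes, using parental line as fixed block, with 3 residual degrees of freedom, and adjusted by Benjamini-Hochberg over all genes. The fit was also run on data simulated from its own model with normal noise. That run was a check of the computation, and how large a change could pass on these arrays is not given here. Each null clone derives from 1 parent by its clone number. As a check of that pairing, the line difference of parents and null clones correlated at 0.16 over 5409 genes, while the consensus correlation within lines, with line as a random block, was -0.13. Nulls of one line share their parent's array. By the titles no clone has repeat cultures, so the p-values reflect only variation among these clones.

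The members and lists were chosen with earlier results of these data known. By rule, full statistics go to members past the threshold or changed by over 1, to Acta2, Tagln, Cnn1, Myh11, Srf, Myocd, Mkl1 and Yap1, and the largest change of each list is named with its fit. Levels on every array are also printed for Mkl2, Cyr61, Zyx and Cald1, which fall outside that rule. Alternatives were other blocks, sibling means, a filter on dim genes, other scalings, all clusters, and leaving out each array. Centring on the chromosome was chosen after seeing the data. A further pathway list is not reported here.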

Additional observations from a re-analysis of the deposited data

Results flagged for a closer look

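Over the 4 null clones, 39 member levels and 8 group medians were put to Dixon's test (95%), and 5 values stood apart. Chance alone gives about 1 in 20 for values of a single population. The member levels were not taken relative to the parents, so a gap between the lines enters the test and that rate need not hold. For Csrp1 it was the 11.2 (log2) of clone 6.8, against at most 9.41 in the other nulls. Clone 12.2 gave the other 4, with Tpm2 low at 6.57, Tln1 low at 9.32, Csrp2 low at 7.56 and Ankrd1 high at 10.9. For Ankrd1 the parents already differed, with 8.28 in clone 12 and 6.05 in clone 6. Its change in clone 12.2 was 2.57, below the 3.27 and 3.44 of clones 6.8 and 6.9.

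In 4 of 39 members both null clones of one line lay on one side of their parent and both of the other line on the opposite side, which 16% of all genes also did. The change in line 12 minus that in line 6 was -0.72 for Cnn2, -0.20 for Myh11, -0.31 for Vim and -0.39 for Tln1. The interaction test in limma gave each an adjusted p of 1. Each line has 1 parental array behind these differences.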

How the results depend on the processing

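No member passed in limma in any of the 15 alternatives, where 2 to 14 had an unadjusted p under 0.05, and of 194 values of 13 named members 188 kept their sign. The exceptions were small changes. Myh11 was at 0.0066 with a further quantile normalisation and 0.0586 with the arrays centred, Yap1 was at 0.16 after centring on the chromosome, and over the fits that left out 1 array Myh11 ranged from -0.13 to 0.0794 and Myocd from -0.67 to 0.16. The replicate block, the parental line, changed no call of a member. Over all genes limma called 112, and 220 without the block, 15 with the mean of sibling clones, 233 with trend and robust moderation, and 0 to 17 without 1 array. The 0 came without a parent, where 1654 and 1493 genes had an unadjusted p under 0.05. The median change of the members was 0.29 without clone 12 and -0.12 without clone 6. A fit that leaves out 1 parent rests on the other line alone. Myh11 was not fitted with dim genes left out. With 1 array per clone by title and no detection calls, changes of genes with levels below about 4 are limited by signal over background.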
